A study of Zea mays with 19 samples.

Results

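Plant microRNAs guide an ARGONAUTE protein to a nearly complementary stretch of a transcript, and the protein cleaves the transcript opposite bases 10 and 11 of the guide. Degradome sequencing reads the uncapped 5′ ends that such cleavage leaves behind. Many plant families cleave transcripts of DNA-binding transcription factors. Others are known for different targets, among them copper proteins (miR397, miR398, miR408 and miR528), auxin receptors (miR393), F-box proteins (miR394) and the silencing machinery itself (miR162 and miR168).

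The sites described here are the cleavage sites in transcripts that carry a GO (Gene Ontology) term, but none for DNA binding or transcription factor activity. A site is 1 cleavage position on 1 transcript with at least 1 raw degradome read under an alignment of a small RNA with a miRBase-derived name. There were 1306 such sites of 3001 in the whole degradome table, on 1175 transcripts of 247 genes, from 126 small RNA sequences of 40 families. The sites were chosen by their raw degradome reads and GO terms, so all values of the degradome below are descriptions with no test. At the edge of the rule lay 571 sites with 1 read each on one side, and 14000 predicted alignments with 0 reads on the other.

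All material came from embryos of germinating maize seeds, 5 seeds per sample. Yu537A germinates late and Yu82 early, and both inbred lines derive from the population Yuzong5. The 18 small RNA libraries formed 6 groups of 3: Yu537A at 6 h, Yu82 at 6 h, Yu537A with gibberellin (GA3, 400 mg/L) at 53 h, Yu537A without it at 53 h, Yu82 at 53 h and Yu537A at 78 h after imbibition. The labels state a GA3 pretreatment of Yu537A seed without naming groups, and untreated status of the remaining Yu537A groups is inferred from the design, which names 1 group as treated. The degradome was 1 library, whose line, time and treatment no label states, so it cannot be tied to any of these groups. Neither table holds mRNA levels, so markers of the embryo were not checked.

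The guide sequences that led a site of category 0 or 1 are shown first, because these sites stand highest on their transcripts. In the scheme in common use, category 0 means that the cleavage position is the single highest position of the transcript, category 1 a shared highest one, category 2 above the median of the transcript, category 3 at or below it, and category 4 a single read. The sources used here do not define the categories, but all 571 sites of category 4 had 1 read. Sequences are those of the deposited table, written 5′ to 3′ with T for U, and capitals mark the seed (bases 2 to 8).
zma-miR528a-5p: tGGAAGGGgcatgcagaggag
zma-miR408a_L-1: tGCACTGCctcttccctggc
zma-MIR397b-p5: tTGAGCGCagcgttgatgagc
osa-MIR397a-p3_2ss11CG18TA: gGCCGGTGatgtgatcaa
osa-miR396d: tCCACAGGctttcttgaacgg
osa-miR171b: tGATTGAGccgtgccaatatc
bdi-MIR171a-p3: tTGAGCCGcgccaatatctct
aly-miR168a-5p: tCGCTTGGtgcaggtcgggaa
zma-miR393a-5p_R-1: tCCAAAGGgatcgcattgatc
ath-miR165a-3p_R-1_1ss15AT: tCGGACCAggcttcttcccc
zma-miR167e-5p_R+1: tGAAGCTGccagcatgatctgg
osa-miR444a-3p.2: tGCAGTTGctgcctcaagctt
ath-miR159b-3p: tTTGGATTgaagggagctctt
For contrast, these are the guides with the most sites in the 5 largest families without any site of category 0 or 1.
zma-miR169i-3p_R+1_1ss6TC: gGCAGCCTccttggctagt
osa-MIR6253-p3_2ss17TG18AT: aTCATTTTcctctcatgt
ath-MIR414-p3_2ss10TC21AC: tCATCGTCaccatcatcatcc
smo-MIR1103-p3_1ss11CT_1: gGTGACCTcctgggaagt
ath-miR8175_L-2: tCCCCGGCaacggcgcca
Names with a suffix are the authors' variants of a miRBase entry. Over all 126 guides there were 77 different seeds. One seed (CGGACCA) was shared by 2 families, miR165 and miR166.

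Few of the sites were dominant on their transcript. Category 0 held 83 sites on 31 genes, category 1 held 18, category 2 held 602, category 3 held 32 and category 4 held 571. The share of category 0 or 1 was 7.73% of the sites (95% Wilson interval 6.41 to 9.31%), against 22.3% (18.6 to 26.4%) of the 435 sites in transcripts of DNA-binding proteins. It was 7.69% (6.20 to 9.51%) of the 1001 sites in transcripts without a GO term, close to the set, and 0 of the 259 sites of unnamed candidate small RNAs. Counted by genes, 33 of 247 (13.4%) had such a site, against 27 of 80 (33.8%) for DNA-binding proteins. Intervals here and below cover counting error only, since reads carried no molecular identifiers and transcripts of 1 gene share reads.

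Sites piled up on alternative transcripts. A gene had a median of 3 sites and at most 45 (Zm00001d011096), and 39 genes with 10 or more sites held 49.8% of all sites. Counting each gene, family and read number once left 367 events, of which 41 (11.2%) were of category 0 or 1. The raw reads of a site stood 1 to 10 times above the authors' normalized reads, and several genes carried the same raw number, so raw reads cannot be assigned to 1 gene there. Intervals given below for raw reads do not cover this. The median site had 2 reads. The authors' p-value was at or under 0.05 for 27 sites on 17 genes, 21 of them of category 0 and 6 of category 1.

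**Figure D1:**
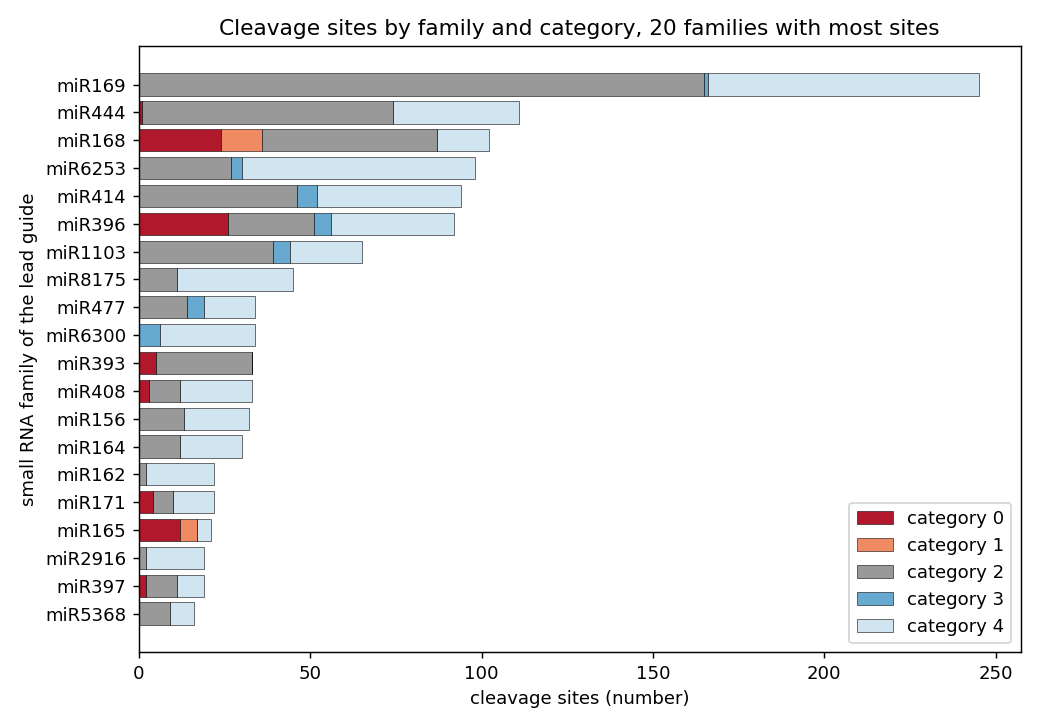
Cleavage sites (number, x axis) by the family of the lead guide (y axis) for the 20 families with most sites, with bars divided by category. miR169 leads with 245 sites and none of category 0 or 1, while miR168 has 36 and miR396 has 26 such sites.

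The site with the most reads was guided by zma-miR528a-5p on Zm00001d021850, annotated with electron carrier activity. It had 3852 reads at position 477 of transcript T001 (exact 95% Poisson interval 3731 to 3976), category 0, alignment score 2.5 and an authors' p of 0.00593. The alignment score is a penalty in which 0 is full pairing, and 4 is the highest value in the table. The highest site of each of the 247 genes summed to 5728 reads, and this 1 position held 67.2% of that sum. A transcript without a GO term, outside the sites described, also had a site of 3852 reads, and the normalized value was 1926, so the reads may be counted on both.

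The other copper and electron carrier sites were smaller. zma-miR528a-5p had 11 reads (interval 5.49 to 19.7) at position 34 of Zm00001d020260, annotated with copper ion binding and oxidoreductase activity, and 25 reads (16.2 to 36.9) at position 140 of the kinase Zm00001d009055. Both sites were of category 0, with a score of 4 and an authors' p of 0.0566. zma-miR408a_L-1 had 36 reads (25.2 to 49.8) on the membrane kinase Zm00001d041236 at position 2819, 12 reads (6.20 to 20.96) on the electron carrier Zm00001d028486 at position 341, and 2 reads on a second electron carrier, Zm00001d045680. These 3 miR408 sites were of category 0, and the electron carriers had the lower scores, 2 each against 3.5 for the kinase. They were the only ones of category 0 or 1 among the 33 miR408 sites on 5 genes. Of the 33, 29 lay on Zm00001d021890, annotated with RNA binding, with at most 3 reads and a score of 4. zma-MIR397b-p5 had 5 reads (1.62 to 11.7) at position 998 of Zm00001d052324, whose terms are copper ion binding, hydroquinone:oxygen oxidoreductase activity and lignin catabolism, the terms of laccases, the known targets of miR397. This site was of category 0 with an authors' p of 0.0533. Of the 50 sites on 17 genes whose GO terms name copper or oxidoreduction, 2 were of category 0 or 1, the miR528 and miR397 sites just given. A list of electron carrier terms, made after the values were seen, held 4 sites on 3 genes, and 3 were of category 0 or 1.

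zma-miR398a-3p, of a family known for copper/zinc superoxide dismutases, had no site of category 0 or 1 here. Its highest site had 16 reads (9.15 to 25.98) on Zm00001d042367, annotated with selenium binding, in category 2 with a score of 3.

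miR396 held the second block of reads, mainly on regulators of transcription that carry no DNA-binding term in the table. The family is known for growth-regulating factors. It had 92 sites on 26 genes, with 26 sites on 12 genes in category 0. The highest by raw reads were 201 reads (174 to 231) on Zm00001d002429, 168 (144 to 195) on Zm00001d026240 and 117 (96.8 to 140) on Zm00001d045533. Their normalized reads were 27.1, 21.6 and 39 in the same order, so the ranking depends on the measure. All 3 genes are annotated with regulation of transcription, nucleus and developmental process. The genes Zm00001d002048, Zm00001d013346 and Zm00001d033876 had 83 reads each, and Zm00001d006338 had 82. Of these, Zm00001d002048 carried only an RNA binding term, and Zm00001d006338 had no term for regulation of transcription. The equal numbers of 83 mean that these reads cannot be told apart between the 3 genes, and on Zm00001d033876 the site was of category 2. The normalized reads were 8.325 for these and 8.2 for Zm00001d006338, so its 82 reads may be shared with them as well. Zm00001d013555 had 67 reads, Zm00001d051456 had 39 and Zm00001d052112 had 15.

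The pairing of the miR396 sites did not follow their reads or the authors' p. The sites with 201, 168, 117, 67 and 39 reads had a score of 0 with osa-miR396d and a lowest p of 0.127, while those with 82 and 83 reads in category 0 had a score of 2.5 and a lowest p of 0.0258. The lowest p of the family was 0.0107, for 6 reads on Zm00001d007465. Up to 6 guides of the family aligned to each of these positions. The sequence with the best score, osa-miR396d, was not the abundant one: it averaged 22.2 CPM (counts scaled to a common library size) over the 18 libraries and was listed in 9 of them, whereas zma-miR396a-5p averaged 29309 CPM.

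In all, 73 sites on 20 genes carried a term for regulation of transcription, a list made after the values were seen, and 27 of them (37.0%) were of category 0 or 1. The label of the whole set as other than DNA-binding therefore rests on GO terms and does not keep out regulators of transcription. miR171, known for GRAS family regulators, added 4 such genes. Zm00001d002718 and Zm00001d026158 had 17 reads each (9.90 to 27.2), Zm00001d029855 had 10 and Zm00001d051387 had 9, all of category 0 with a score of 1.

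**Figure D2:**
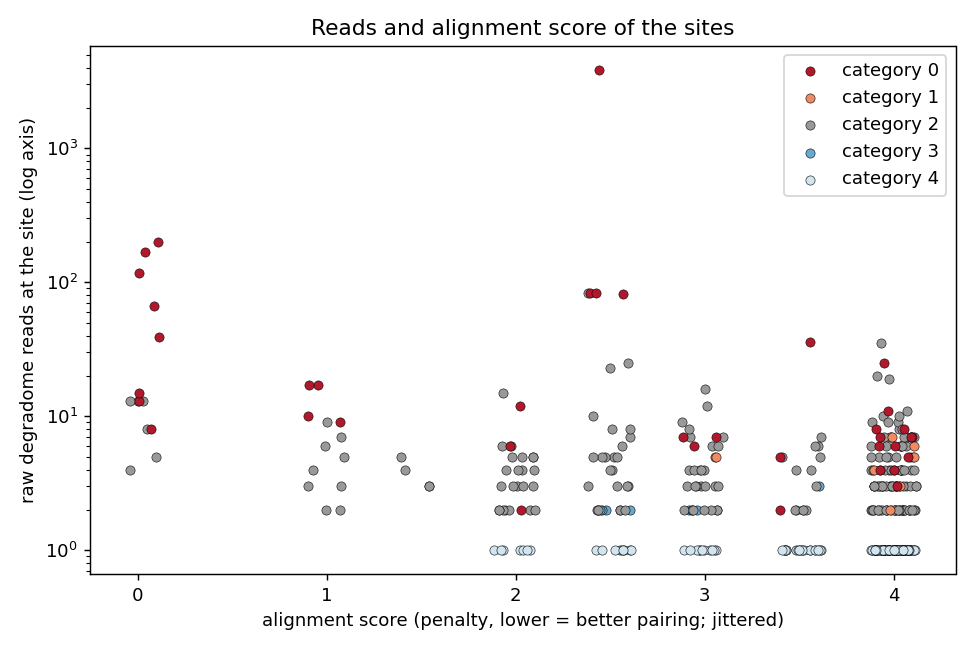
Raw degradome reads (y axis, log scale) against alignment score (x axis, points jittered), 1 point for each different combination of family, gene, reads, category and score. The point at 3852 reads is the miR528 site, and the points between 39 and 201 reads are miR396 sites of scores 0 and 2.5.

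The sites of the silencing pathway had few reads. miR168, known for ARGONAUTE1, had 102 sites on 4 genes, all with a score of 4, and 36 of them were of category 0 or 1. Zm00001d011096 and Zm00001d035747 had at most 8 reads (3.45 to 15.8), Zm00001d002650 had 7 and Zm00001d026111 had 2, and all 4 carry the terms nucleic acid binding and protein binding. No miR168 site had an authors' p under 0.217. The only guide of these sites, aly-miR168a-5p, was listed in 1 of 18 libraries, with 9 counts in replicate 2 of Yu537A without GA3 at 53 h. miR162, known for Dicer-like 1, had 22 sites on Zm00001d027412, annotated with ribonuclease III activity, with 1 or 2 reads and none of category 0 or 1.

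Sites of miR393 and miR394 formed a small group. zma-miR393a-5p_R-1 had 33 sites on 3 genes, and 84.6% of the 78 predicted alignments of this family had reads, the highest share of the 40 families. On Zm00001d025268, annotated with auxin-activated signalling, 9 transcripts had 7 reads each (2.81 to 14.4). Category 0 held 5 of those sites, with a score of 3 and an authors' p of 0.0264. On Zm00001d003911 and Zm00001d010863, whose only term is protein binding, the pairing was closer, with a score of 1. Their highest sites had 7 and 2 reads and category 2. zma-miR394a-5p had 13 reads (6.92 to 22.2) on each of Zm00001d011994 and Zm00001d042309 at full pairing (score 0), again in category 2 with an authors' p of 0.90. The only term of these genes is also protein binding. Of the 10 sites with a hormone term, 9 belonged to miR393 and 1 to zma-miR396a-5p. The latter had 20 reads on Zm00001d041982, annotated with cytokinin biosynthesis. That site was of category 2, with a score of 4 and an authors' p of 0.999996.

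Single genes made up the rest of category 0 and 1. Zm00001d053401, annotated with ion transport and voltage-gated potassium channel activity, had 21 sites led by ath-miR165a-3p_R-1_1ss15AT, 17 of them of category 0 or 1, with at most 4 reads and a score of 4. Zm00001d023434, with a signal transduction term, had 6 reads under ath-miR159b-3p. Zm00001d024520, with a zinc ion binding term, had 7 reads under osa-miR444a-3p.2. Zm00001d032343, annotated by the authors as the histone methyltransferase EZH2, had 5 reads in category 1 under zma-miR167e-5p_R+1. Zm00001d042763, annotated as a cellulase, had 2 reads under osa-MIR397a-p3_2ss11CG18TA. Of these lead guides, ath-miR165a-3p_R-1_1ss15AT, osa-miR444a-3p.2 and osa-MIR397a-p3_2ss11CG18TA were each listed in 1 of 18 libraries. They averaged 2.53, 16.7 and 2.22 CPM in that order, while ath-miR159b-3p and zma-miR167e-5p_R+1 were listed in all 18. The sites of miR827 were not of category 0 or 1, being 9 positions of category 4 with 1 read each on Zm00001d029272.

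The largest functional group had no dominant site. Of the 1306 sites, 274 on 32 genes had terms for translation or the ribosome, and none of these was of category 0 or 1. Guides named miR169 led 136 of them. The highest was 25 reads on Zm00001d021061, a ribosome gene, under zma-miR169i-3p_R+1_1ss6TC. That guide, a variant of a 3p strand, is 19 bases long and starts with G. It aligned to 113 sites of the set but was listed in 2 of 18 libraries, averaging 5.77 CPM. Photosynthesis and plastid terms (25 sites), protein turnover (64), defence and stress (17) and seed and germination (3) had no site of category 0 or 1 either. RNA processing had 1 of 108 (the 83 reads on Zm00001d002048), carbohydrate and energy 1 of 78, cell wall 1 of 9, transport 17 of 110 on 1 gene, and kinases and signalling 5 of 44. Another 580 sites stood in none of the 12 lists, and 70 of them were of category 0 or 1. By family, 11 of 40 led any site of category 0 or 1, and the other 29 families held 842 sites without one.

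The share of alignments with reads was higher at scores 0, 1, 1.5 and 2 than at 3 to 4, though not in step. In the set, reads were found for 46.3% of 67 alignments at score 0, 68.6% of 137 at score 1, 32.4% of 339 at score 2, 15.02% of 1798 at score 3 and 10.5% of 9826 at score 4. Over all scores, 1829 of 15829 alignments (11.6%) had reads, against 35.1% of 4150 for DNA-binding proteins. Transcripts without a GO term were close to the set, with 12.2% of 13423, and unnamed candidates had 3.25% of 8567. At score 3 the shares were 15.02% in the set (Wilson 13.4 to 16.7%) and 46.2% (42.4 to 50.0%) for DNA-binding proteins. At score 1 the set had 68.6% and DNA-binding proteins 49.6% (40.8 to 58.4%), but alignments were counted per small RNA name, and 48 of the 94 with reads were 1 miR393 sequence under 2 names on transcripts of Zm00001d003911 and Zm00001d010863. Counted once per sequence, the set had 56.6% at score 1 (46.7 to 65.9%), and the intervals overlapped. Of the 29 sites at score 0, 20 (69.0%) were of category 0 or 1, and all 20 were miR396 sites, on 8 genes. Beyond score 0 the share did not fall steadily: it was 12.9% at score 1, 0% at 1.5, 3.88% at 2, 4.90% at 2.5, 4.94% at 3, 2.80% at 3.5 and 7.49% at 4. A score of 4 was held by 58.3% of all sites. The recorded position lay opposite base 10 of the guide in 1551 of 1829 alignments (84.8%), base 11 in 201 and base 9 in 77. Guide bases were counted from its 5′ end at the end of the aligned range. These bases account for all 1829 alignments with reads. The position may thus be fixed by how alignments were matched, and it gives no evidence of guided cleavage.

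**Figure D3:**
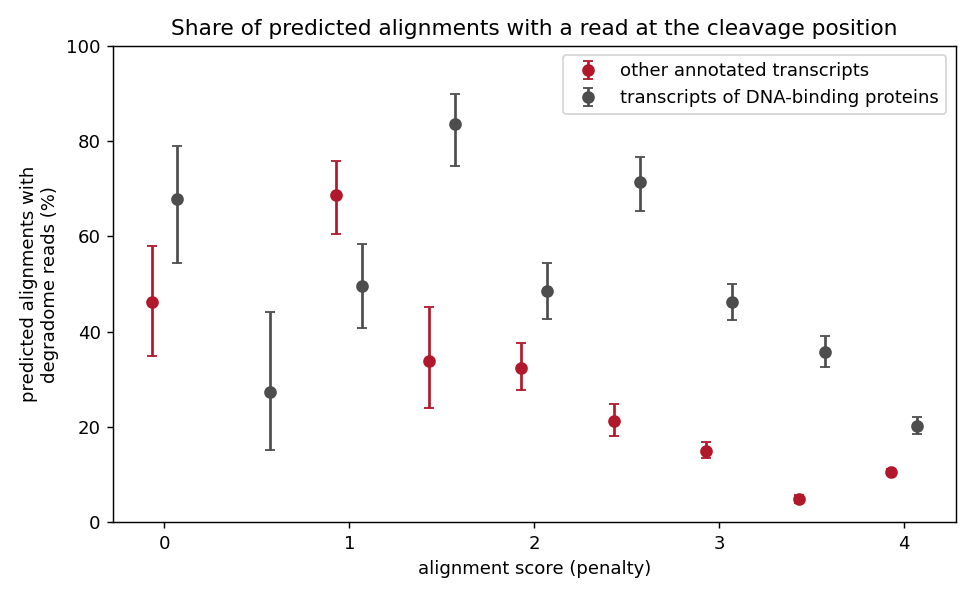
Share of predicted alignments with degradome reads (y axis, %) by alignment score (x axis), for other annotated transcripts and for transcripts of DNA-binding proteins, with 95% Wilson intervals. Scores with under 20 alignments are left out. At scores 3 and 4 the set lies below the DNA-binding proteins, with 15.02% and 10.5% of alignments.

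The rule did not use the first base, length or level of a guide directly. It did keep only guides with a miRBase-derived name and a predicted alignment, both of which depend on sequence. Of the 30 guide sequences with a site of category 0 or 1, 29 began with U (96.7%, Wilson 83.3 to 99.4%), against 46 of the 96 without one (47.9%, 38.2 to 57.8%). Of the same 30, 27 were 20 to 22 bases long (90.0%, 74.4 to 96.5%), against 53 of 96 (55.2%, 45.3 to 64.8%). A first base U and a length of 21 bases are typical of guides loaded into ARGONAUTE1. The 30 guides are not independent, since they hold 14 seeds and several are variants of 1 miRNA. Their median level was 170 CPM, above the 33.6 CPM of the 64 guides whose best site was of category 2 but like the 172 CPM of the 31 listed guides with category 3 or 4 at best. A level of 100 CPM or more was reached by 60.0% of the 30, by 28.1% of the guides with category 2 and by 58.1% of those with category 3 or 4. Of the 30, 14 (46.7%) were listed in all 18 libraries, against 20.3% of the guides with category 2, and 4 were listed in 1 library. The exception to the first base was osa-MIR397a-p3_2ss11CG18TA, which is 18 bases long and starts with G.

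**Figure D4:**
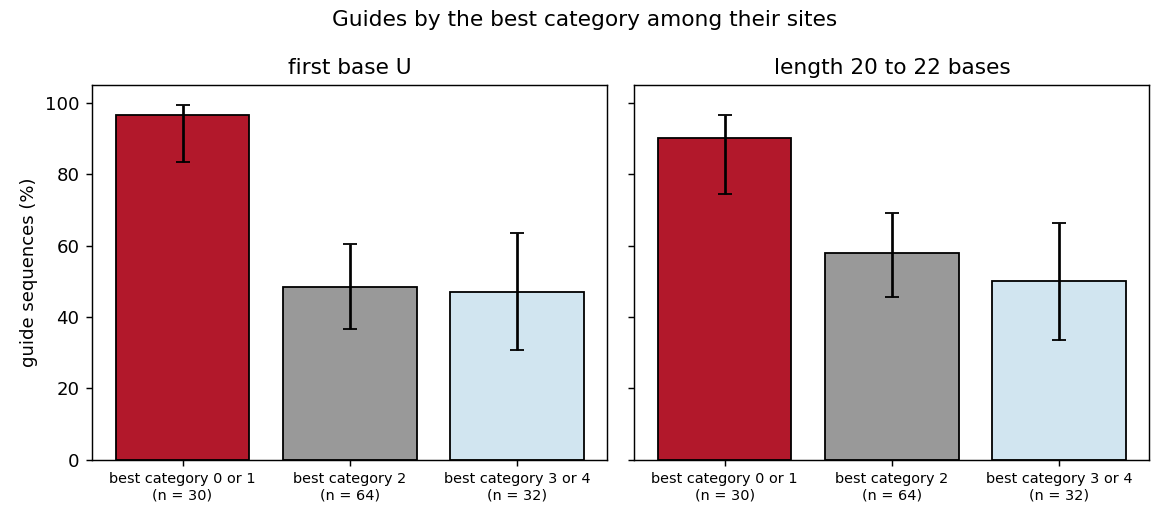
Share of guide sequences (y axis, %) that start with U (left) or are 20 to 22 bases long (right), by the best category among their sites, with 95% Wilson intervals. Guides with a category 0 or 1 site reach 96.7% and 90.0%.

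Whether the guides of these sites differ between the lines and with GA3 was asked with the counts of the small RNA libraries, which are independent of the degradome reads. Totals ran from 42959 to 818817 counts, and 78 guides were among the 223 sequences tested. In these bulk samples, fewer cells of a type and less RNA per cell cannot be told apart. Levels below are CPM scaled by TMM (trimmed mean of M values, a scaling that assumes most sequences alike), and p-values are from edgeR's quasi-likelihood test, Benjamini-Hochberg adjusted over the 223.

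One guide each of miR528, miR408 and miR397 was called higher in the late line at both times. These led the category 0 sites with copper or electron carrier terms, a grouping made after the values were seen. Of the 3 other miR408 sequences that align to Zm00001d028486, mtr-miR408-3p_L-1R+2 was called at 53 h only (adjusted p = 0.0839 by edgeR at 6 h and 0.0347 at 53 h). The other two were called at neither time, with adjusted p-values of 0.0842 and 0.115 for gma-miR408a-3p_L-1R+3 and of 0.123 and 0.0937 for ppt-miR408b_R+1_2ss19GT20CT. zma-miR528a-5p, the guide of the 3852-read site, had 22493, 40248 and 68153 CPM in Yu537A at 6 h, against 3871, 8261 and 6726 CPM in Yu82. At 53 h it had 18710, 35338 and 25246 CPM in Yu537A, against 2042, 6207 and 2207 CPM in Yu82. Every Yu537A library lay above every Yu82 library at both times. The log2 fold change was 2.80 (SE 0.63, adjusted p = 0.0099 by edgeR) at 6 h and 2.92 (SE 0.63, adjusted p = 0.00685) at 53 h. The 6 h call ended with library totals in place of TMM (2.04, adjusted p = 0.0539) and without replicate 2 or 3 of Yu537A or replicate 1 or 3 of Yu82, and the 53 h call without replicate 1 (2.66, adjusted p = 0.0616) or 3 (2.55, adjusted p = 0.0992) of Yu82.

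zma-miR408a_L-1, the guide of the sites on Zm00001d041236 and Zm00001d028486, had 67440, 52496 and 230617 CPM in Yu537A at 6 h, against 4713, 20183 and 9433 CPM in Yu82. At 53 h it had 64612, 49226 and 61922 CPM in Yu537A, against 2534, 13559 and 3234 CPM in Yu82. The groups did not overlap, and at 6 h replicate 3 of Yu537A stood far above the other libraries. The log2 fold change was 3.35 (SE 0.78, adjusted p = 0.0124 by edgeR) at 6 h and 3.18 (SE 0.77, adjusted p = 0.0131) at 53 h. The 6 h call ended without that replicate (2.39, adjusted p = 0.106) and without replicate 1 or 3 of Yu82, and the 53 h call with library totals (2.36, adjusted p = 0.0543), without replicate 3 of Yu537A and without replicate 1 or 3 of Yu82.

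zma-MIR397b-p5, the guide of the site on Zm00001d052324, had 40270, 87279 and 99479 CPM in Yu537A at 6 h, against 2115, 4202 and 7458 CPM in Yu82. At 53 h it had 75768, 60758 and 53436 CPM in Yu537A, against 707, 4163 and 951 CPM in Yu82. No library of Yu82 came near those of Yu537A. The log2 fold changes of 4.04 (SE 0.71, adjusted p = 0.00196 by edgeR) and 5.03 (SE 0.74, adjusted p = 7.73e-04) were the largest positive ones among the called guides, and this guide stayed called in all 11 alternatives at each time.

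At 6 h these were the only 3 of 78 guides called higher (3.85%, against 2.69% of all 223 sequences), and 1 was called lower (4.04% of all sequences). The count of 3 fell to 1 without replicate 3 of Yu537A, without replicate 1 of Yu82 and without replicate 3 of Yu82. The one lower, bdi-MIR444d-p5_1ss2GA, had 0 counts in every library of Yu537A, against 56, 58 and 61 counts in Yu82, at least 7.80-fold lower when 4 counts per library, the usual smallest listed number, stand in for 0. Its 17 sites lay on 2 genes, with at most 7 reads and none of category 0 or 1. The libraries of the lines did not overlap for 10 guides higher and 3 lower, where 8.52% and 19.3% of all sequences did so.

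At 53 h, 9 of 78 guides were called higher in the late line (11.5%, against 6.73% of all sequences) and 3 lower (3.85%, against 4.04%). The 9 guides had 150 sites, 31 of them of category 0 or 1 on 9 genes, where 101 of all 1306 sites were (7.73%). Beside the 3 above, the called guides were zma-miR393a-5p_R-1, zma-miR398a-3p, zma-miR827-3p, zma-miR169o-5p_R-1, mtr-miR408-3p_L-1R+2 and osa-miR166m_R-2_1ss19CT. The last aligns to the potassium channel gene Zm00001d053401, where it was not the lead guide. That gene held 17 of the 31 sites, with at most 4 reads. zma-miR393a-5p_R-1, the guide of the sites on the auxin signalling gene Zm00001d025268, had 6977, 6469 and 4909 CPM in Yu537A, against 1161, 1932 and 1256 CPM in Yu82. Its log2 fold change was 2.08 (SE 0.50, adjusted p = 0.0131 by edgeR), and that of zma-miR398a-3p was 2.11 (SE 0.55, adjusted p = 0.0202). For zma-miR393a-5p_R-1 the call ended with library totals (1.07, adjusted p = 0.0592) and without replicate 1 or 3 of Yu82. Of the 11 alternatives, the call was lost in 6 for zma-miR398a-3p, in 6 for zma-miR827-3p, in 5 for zma-miR169o-5p_R-1, in 7 for mtr-miR408-3p_L-1R+2 and in 9 for osa-miR166m_R-2_1ss19CT. The lower guides were zma-miR159a-3p (-1.84, SE 0.48, adjusted p = 0.0202 by edgeR), bdi-MIR444d-p5_1ss2GA (at least 32.7-fold) and bdi-MIR169c-p3_2ss14TC18GC (at least 4.12-fold), and none of their 28 sites was of category 0 or 1. The call of bdi-MIR169c-p3_2ss14TC18GC was lost in 8 of the 11 alternatives and that of zma-miR159a-3p in 4, while bdi-MIR444d-p5_1ss2GA kept it in all 11. The libraries did not overlap for 27 guides higher and 9 lower, where 18.8% and 16.6% of all sequences did so.

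The 53 h calls rest on few libraries. The count of 9 fell to 4 without replicate 2 or without replicate 3 of Yu537A and to 1 without replicate 1 or without replicate 3 of Yu82. The 3 lower calls fell to 1 without replicate 1 or 2 of Yu537A and without replicate 1 or 3 of Yu82. With library totals in place of TMM, 2 guides were higher and 5 lower. One sequence, zma-miR166a-3p, averaged 611194 CPM. The median log2 fold change of the 78 guides was then -0.34, against 0.68 with TMM, and that of all sequences -0.78, against 0.11.

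None of the tested guides of the miR396 and miR171 sites, which include category 0 sites on regulators of transcription, was called. The low-count filter left other guides of these families untested, among them osa-miR396d, the lead guide of the category 0 miR396 sites. zma-miR396a-5p had 58994, 31161 and 29694 CPM in Yu537A at 53 h, against 5826, 8148 and 6796 CPM in Yu82. The groups did not overlap, but the log2 fold change of 2.53 (SE 0.83) missed the threshold (adjusted p = 0.0617 by edgeR). At 6 h it was 1.97 (SE 0.81, adjusted p = 0.134). osa-miR171b differed by 0.61 (SE 0.59) at 6 h and 0.08 (SE 0.59) at 53 h, and zma-miR394a-5p by -0.78 (SE 0.46) and 0.32 (SE 0.46). The test of whether the line difference itself changed between 53 h and 6 h called 0 of 78 guides by edgeR, with 4 at an unadjusted p under 0.05 and a lowest adjusted p of 0.57.

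**Figure D5:**
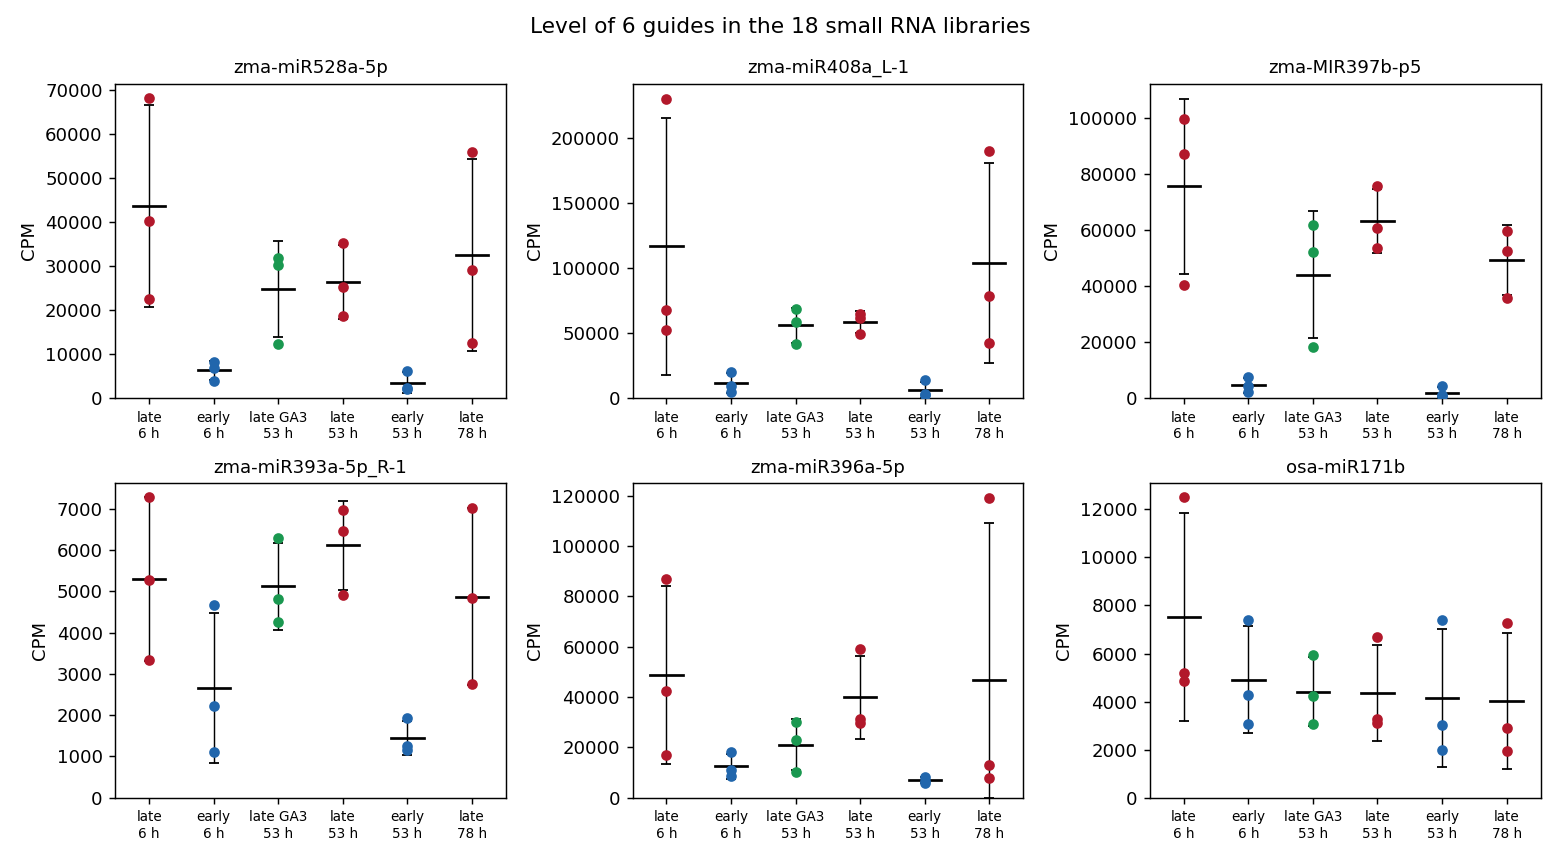
CPM (y axis, TMM scaled) of 6 guides in each library (points), with the group mean (line) and SD (bars, n = 3 libraries). Red is Yu537A, green Yu537A with GA3 and blue Yu82. In the upper panels each Yu537A library at 6 h and 53 h lies above each Yu82 library of the same time.

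GA3 left the guides without a call at 53 h. Of the 78 guides, 0 were called higher and 0 lower by edgeR (0% of all 223 sequences in each direction), with 3 higher and 0 lower at an unadjusted p under 0.05, and DESeq2 also called 0. zma-miR528a-5p had 12297, 31871 and 30282 CPM with GA3, against 18710, 35338 and 25246 CPM without (log2 fold change -0.09, SE 0.59). zma-MIR397b-p5 had 18400, 52059 and 61695 CPM with GA3, against 75768, 60758 and 53436 CPM without (-0.52, SE 0.63). zma-miR393a-5p_R-1 had 4253, 4814 and 6300.5 CPM with GA3, against 6977, 6469 and 4909 CPM without (-0.26, SE 0.48). The groups overlapped for all 3 guides, and standard errors of 0.48 to 0.63 leave room for changes in either direction. Libraries did not overlap for 4 guides higher and 2 lower with GA3, where 8.52% and 2.24% of all sequences did so.

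At 78 h, a time measured in Yu537A alone, zma-miR528a-5p had 12536, 29043 and 55976 CPM and zma-miR408a_L-1 had 42688, 78239 and 190226 CPM. No Yu82 library of 78 h stands against them, and the replicates of both guides spread widely. zma-miR396a-5p had 118883, 13113 and 7916 CPM, with 1 library far above the other 2.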

How the data were processed

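Small RNA libraries were made with TruSeq Small RNA kits and read on an Illumina HiSeq, per the labels' protocols. In the deposited miRNA table the authors give expected counts, which need not be whole because entries with 1 sequence split its reads. In the degradome table the authors give raw read counts per site, 2 columns of signal (normalized reads and a scaled abundance), an alignment score, a p-value per site not said to be adjusted, and as other measures the deposited cleavage position and category. No source used here names the matching tool, transcript set or genome build. The degradome table was held in part, with 5176 empty lines. The 18 columns of normalized values in the miRNA table were not used.

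Sites were taken as transcript plus cleavage position, and the lead guide of a site is the one with the lowest alignment score, then p. Summing the 782 miRNA entries by sequence gave 536 rounded values per library, and sequences with equal values in every library, listed in at least 3, were merged, which left 530. Of 126 guide sequences, 125 were in that table. Counts were tested in edgeR 4.0.16 (R 4.3.3) by the two-sided quasi-likelihood F test in a single model of all 18 libraries with group means, after filterByExpr (minimum count 10) and TMM, with 0.05 as the threshold for the adjusted p. Each SE was taken from the fold change and its F statistic. The fit was tested on simulated counts. Alternatives used DESeq2 1.42.0, other scalings and filters, a replicate block and leaving out libraries. Replicates are biological, per the series design. Python 3.11.15 with pandas 2.3.3 and scipy 1.17.1 served for the tables. None of the 247 genes matched the RefSeq gene table, so genes are called by the file's IDs and terms.

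Sites are named by rule: the 20 with the most reads (1 per gene), the highest of the 15 families with most sites, up to 3 of each family with a known target outside DNA-binding proteins, and the 10 with the lowest score. Guides named are those of such sites and every called guide. All genes with a site of category 0 or 1 outside that rule were chosen after their values were seen. The set, its rule and the lists were chosen with earlier results of these data known.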

Additional observations from a re-analysis of the deposited data

How the results depend on the processing

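The number of sites depended on what counts as one. It fell to 284 with at least 5 raw reads, to 27 with an authors' p at or under 0.05, to 367 with 1 site per gene, family and read number, and to 703 in categories 0 to 2. A score limit of 4 left 1306, as no score is higher. The share of category 0 or 1 moved to 26.4%, 100% and 11.2% under the first 3 of these. The sites of miR169, the leading family, went down to 38, 0, 62 and 165 under the 4, and miR168 (45 sites) led at 5 reads and miR396 (6 sites) at the p limit. Counting alignments once per small RNA sequence, an alternative chosen after seeing the data, moved the share with reads from 68.6% to 56.6% at score 1 and from 11.6% to 11.7% over all scores. Of the called guides at 6 h (3 higher, 1 lower), library totals alone gave 4 lower, no low-count filter 6 higher and 2 lower, and DESeq2 8 higher and 2 lower. At 53 h (9 higher, 3 lower) library totals alone gave 2 higher and 5 lower, and DESeq2 15 higher and 5 lower. Leaving out 1 library at a time gave 1 to 3 higher and 1 to 1 lower at 6 h, and 1 to 10 higher and 1 to 2 lower at 53 h. Over 176 refits of the 16 called guide results, none changed direction and 62 lost the call. The 4 results that kept it throughout were zma-MIR397b-p5 and bdi-MIR444d-p5_1ss2GA at both times. For the other moves the cause was not tested. The labels do not say that replicate numbers pair libraries, and the deviations of like-numbered libraries correlated between -0.36 and 0.18. With the replicate block 4 guides were higher and 1 lower at 6 h, 7 higher and 2 lower at 53 h, and 0 with GA3. Sites with 1 to 10 reads have wide counting intervals, and the degradome had no replicate library.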
